A study of Bos taurus with 8 samples.

Results

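Telomerase and shelterin genes were followed in bovine embryonic stem cells (bESCs) as the cells moved from feeders to feeder-free culture. The set held 10 genes, chosen by name from the 32640 genes in the count file: the telomerase genes TERT, DKC1, NHP2 and NOP10, the shelterin genes TERF1, TERF2, TINF2, POT1 and ACD, and the helicase gene RTEL1. All 10 were present in the file. The libraries came from 4 XX lines, named A, C, D and E, all kept in 5% O2. In the MEF condition the lines grew on mouse embryonic fibroblasts, irradiated CF1 feeder cells, and were sampled at passage 15 to 17. In the feeder-free (FF) condition the same lines grew on vitronectin, a matrix protein, and were sampled at passage 20 to 22. Each condition therefore had 4 libraries. Passage and matrix changed together, and the methods describe removal of feeder reads for cells grown on MEF alone. The parts of these in any difference cannot be told apart. The medium, named NBFR in the methods, held FGF2 and IWR-1, a tankyrase inhibitor used to block WNT signalling. The methods name Activin A as an addition for feeder-free culture. Sample names carry the same medium code, NBFRA, in both conditions, so the medium of the MEF cultures is uncertain.

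Telomeres are repeats of a short sequence at chromosome ends, which shorten at each division unless telomerase extends them. Telomerase is built from the reverse transcriptase TERT and an RNA template, TERC, which is held by the H/ACA proteins dyskerin (DKC1), NHP2, NOP10 and GAR1. Those H/ACA proteins also sit on the small nucleolar RNAs that guide pseudouridylation of ribosomal RNA. Shelterin is the protein cap of the telomere: TERF1 and TERF2 bind the double-stranded repeats, POT1 binds the single-stranded end, ACD (also called TPP1) joins POT1 to the complex and recruits telomerase, and TINF2 bridges the parts. RTEL1 is a helicase that unwinds telomere loops. Telomerase activity is a known feature of pluripotent stem cells.

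Total counts on genes ranged from 44268717 to 54296425 per library on MEF and from 49671478 to 102351560 in feeder-free conditions, the largest being line D in feeder-free conditions. Levels are given as CPM, counts scaled to a common library total, after TMM scaling, and 15744 genes with enough counts were tested. Of the 10 pluripotency markers checked, 9 were listed in the file, and their summed level was 5962 to 6561 CPM on MEF and 5091 to 5663 CPM in feeder-free conditions. Fibroblast markers had 14 of 14 genes listed and a summed level of 478 to 601 CPM on MEF and 259 to 1324 CPM in feeder-free conditions. The sum was highest in the feeder-free libraries of lines D and C, which were grown without feeders. Whether these counts came from feeder cells or from the bovine cells was not tested. COL1A1 alone ranged from 292 to 383 CPM on MEF and from 115 to 1033 CPM in feeder-free conditions. Single markers went in different directions. COL1A2 was at 0.680 to 4.65 CPM on MEF and 0 to 0.414 CPM in feeder-free conditions. COL3A1 was at 0.181 to 1.57 CPM on MEF and 1.44 to 10.5 CPM in feeder-free conditions. FAP reached at most 0.136 CPM in any library, and FAP and TWIST2 were at 0 in every feeder-free library. The summed level thus does not describe all 14 genes alike. In bulk RNA, fewer cells of a type and less RNA per cell cannot be told apart.

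TERT, on chromosome 20 of ARS-UCD2.0 (chr20:71145276-71162377), was close to undetected. On MEF its counts were 4 in line A, 6 in line C, 0 in line D and 0 in line E. In feeder-free conditions they were 6 in line A, 2 in line C, 0 in line D and 2 in line E. Line D thus gave no TERT count in either condition, including in the deepest library, where the 3 counts that a count of 0 allows correspond to 0.0293 CPM. The MEF libraries together held 10 TERT counts among 191608754 counts on genes, and the feeder-free libraries also held 10, among 254411484. A count of 10 has an exact Poisson 95% interval of 4.80 to 18.4 counts. These intervals and limits cover counting error only. Mean levels were 0.0512 ± 0.0594 CPM on MEF against 0.0491 ± 0.0508 CPM feeder-free (SD, n = 4 each), and the 2 conditions overlapped (two-sided exact permutation test, p = 1, smallest possible p = 0.0286). TERT did not pass the filter on low counts and was the only one of the 10 genes left untested by edgeR. Of the 32637 genes with values, 18325 had a higher mean CPM than TERT, with no correction for gene length, and 9375 had no count in any library. No difference in TERT between conditions was detectable at this depth.

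**Figure D1:**
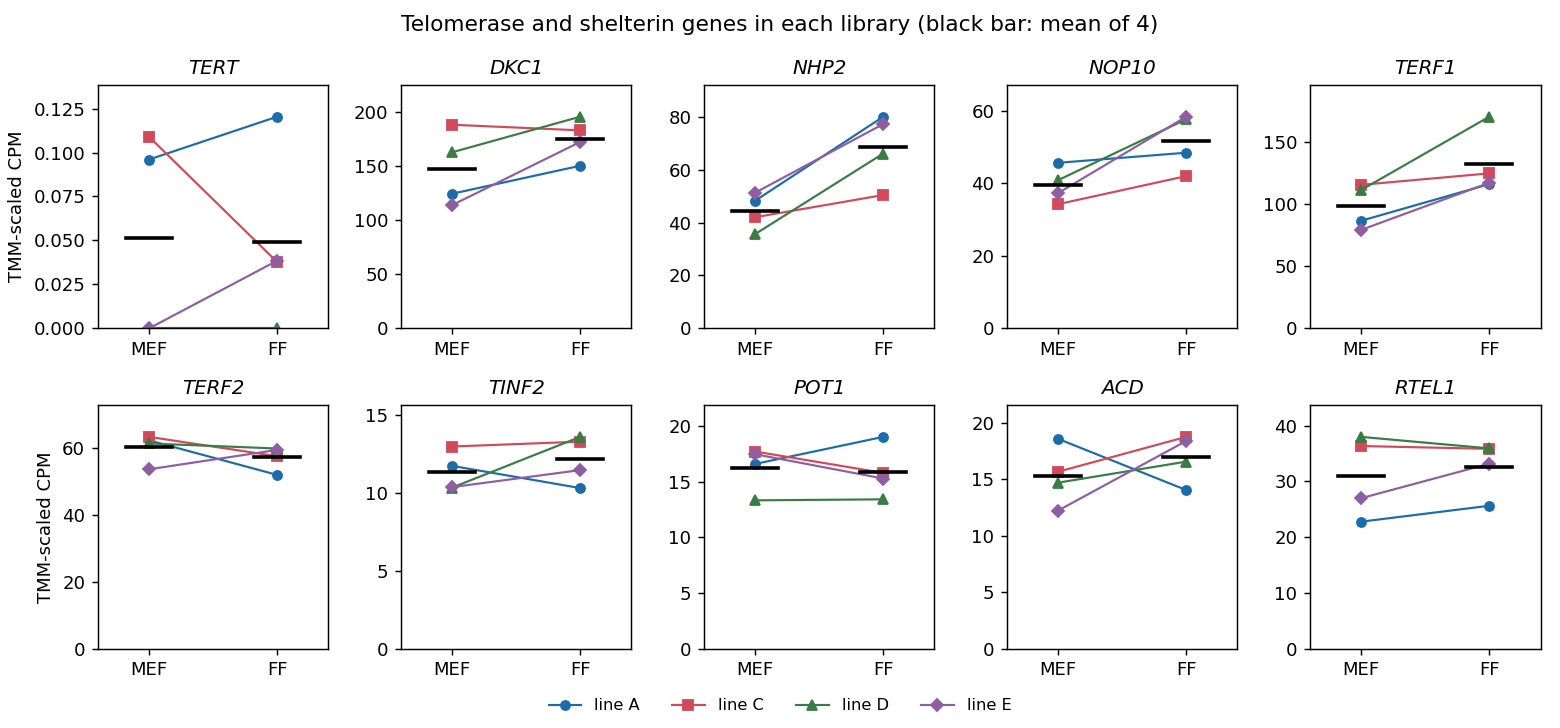
TMM-scaled CPM (vertical axis, from 0, scaled to each gene) of the 10 genes in the MEF and feeder-free (FF) libraries. Each coloured line joins the 2 libraries of 1 cell line, and black bars are means of 4 libraries. NHP2, NOP10 and TERF1 go up in all 4 lines, while TERT stays at or under 0.120 CPM in every library.

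Of the 3 protein partners of telomerase RNA in the set, NHP2 and NOP10 had higher values in feeder-free conditions in every line, as did 20.2% of all tested genes, and NHP2 passed the test once the lines were paired. NHP2, an H/ACA core protein on chromosome 7 (chr7:39244059-39247983), had 48.3 CPM in line A, 42.0 in line C, 35.7 in line D and 51.3 in line E on MEF. In feeder-free conditions it had 80.1 CPM in line A, 50.4 in line C, 66.1 in line D and 77.3 in line E. It was higher in all 4 lines, by a log2 ratio between 0.26 in line C and 0.89 in line D. The conditions overlapped only because line C in feeder-free conditions lay below line E on MEF. The log2 fold change of NHP2 was 0.63 (standard error 0.17), a 1.55-fold difference, with an adjusted p of 0.0823 in edgeR's quasi-likelihood test on condition alone. With line as a paired term (replicate block), its log2 fold change was 0.62 (standard error 0.13) with an adjusted p of 0.0136 in edgeR, which passed the adjusted p of 0.05 and the fold change of 1.5 used as thresholds, as 5.52% of all tested genes did in that direction. NHP2 lost that call when line D was left out of the paired fit (log2 fold change 0.53, adjusted p = 0.0859 in edgeR), and also without line A, where its log2 value of 0.58 was just under 1.5-fold at an adjusted p of 0.0400 in edgeR.

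NOP10, the smallest H/ACA core protein, lies on chromosome 10 (chr10:28299516-28303026). Its levels on MEF were 45.7 CPM in line A, 34.3 in line C, 40.9 in line D and 37.4 in line E. Its feeder-free levels were 48.5 CPM in line A, 42.0 in line C, 57.7 in line D and 58.4 in line E. NOP10 was again higher in all 4 lines, but line C in feeder-free conditions lay inside the MEF range. The log2 fold change was 0.39 with a standard error of 0.15 (adjusted p = 0.165 in edgeR), and 0.38 with a standard error of 0.13 in the paired fit (adjusted p = 0.0683 in edgeR). NOP10 passed in neither fit.

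DKC1, the pseudouridine synthase of the H/ACA complex, is on the X chromosome (chrX:36210990-36222824). DKC1 had 124 CPM in line A, 188 in line C, 163 in line D and 114 in line E on MEF. In feeder-free conditions it had 150 CPM in line A, 183 in line C, 195 in line D and 172 in line E. DKC1 was higher in 3 of 4 lines, the exception being line C, and the spread between lines was wide on MEF (147 ± 34.4 CPM, SD, n = 4) beside 175 ± 19.2 CPM (SD, n = 4) in feeder-free conditions. DKC1 did not pass, with a log2 fold change of 0.25 and a standard error of 0.17 (adjusted p = 0.454 in edgeR), and the 95% interval ran from -0.14 to 0.64. The paired value was 0.27 (adjusted p = 0.152 in edgeR). A microRNA gene, MIR664A, lies inside DKC1 and reached at most 0.476 CPM.

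In shelterin, TERF1 had higher values in feeder-free conditions, and the 95% intervals of the other 4 shelterin genes of the set lay within 1.5-fold. TERF1, on chromosome 14 (chr14:36382268-36425376), had 86.5 CPM in line A, 115 in line C, 111 in line D and 79.1 in line E on MEF. In feeder-free conditions it had 116 CPM in line A, 125 in line C, 170 in line D and 117 in line E. Every feeder-free library was above every MEF library, though by a small margin: the lowest feeder-free value was 115.9 CPM and the highest MEF value 115.4 CPM. Without scaling beyond library size that order did not hold, since the values became 116.4 and 117.0 CPM, while NHP2 and NOP10 then separated completely. The share of all tested genes that separated without such scaling was not computed. TERF1 had a log2 fold change of 0.43 with a standard error of 0.18 (adjusted p = 0.195 in edgeR). The paired value was 0.43 with a standard error of 0.12 (adjusted p = 0.0359 in edgeR), past the threshold on p and short of the fold change of 1.5. TERF1 was higher in 4 of 4 lines, with log2 ratios from 0.11 in line C to 0.61 in line D. Without the feeder-free library of line D the log2 fold change on condition alone was 0.28 (adjusted p = 0.437 in edgeR), and leaving out any one line raised the paired adjusted p to between 0.0534 and 0.199. That library also had the highest summed fibroblast markers, 1324 CPM, of which COL1A1 alone made up 1033 CPM. The part of these markers in the TERF1 value was not tested. Of the tested genes, 7.67% passed the adjusted p alone as higher in the paired fit, and 6.21% had all 4 feeder-free libraries above all 4 MEF libraries. Of the 9 tested members, 2 (NHP2 and TERF1) met the former and 1 (TERF1) the latter.

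TERF2, the paralog of TERF1 that keeps chromosome ends from being joined, lies on chromosome 18 (chr18:36491411-36514012). On MEF it had 62.2 CPM in line A, 63.2 in line C, 61.3 in line D and 53.5 in line E. In feeder-free conditions it had 51.9 CPM in line A, 57.4 in line C, 59.8 in line D and 59.3 in line E. The conditions overlapped, with TERF2 lower in 3 lines and higher in line E. Its log2 fold change was -0.073 (95% interval -0.31 to 0.16, adjusted p = 0.749 in edgeR). TERF2 overlaps NIP7, which reached 22.8 CPM. Whether reads were counted by strand is not given in the sources used here, so reads of overlapping genes may not have been told apart.

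The remaining shelterin genes showed no common direction, and none passed the test (adjusted p from 0.679 to 0.933 in edgeR). TINF2, the bridging subunit, on chromosome 10 (chr10:20926557-20932423), averaged 11.4 ± 1.26 CPM on MEF against 12.2 ± 1.56 CPM feeder-free (SD, n = 4 each), with a log2 change of 0.10 (95% interval -0.26 to 0.46). TINF2 had 11.7 CPM in line A, 12.98 in line C, 10.3 in line D and 10.4 in line E on MEF, and 10.3, 13.3, 13.6 and 11.5 CPM in the same order of lines in feeder-free conditions, so the conditions overlapped.

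POT1, which binds the single-stranded end, on chromosome 4 (chr4:89092216-89190566), averaged 16.3 ± 2.02 CPM against 15.9 ± 2.33 CPM (SD, n = 4 each), with a log2 change of -0.036 (95% interval -0.40 to 0.33). It had 16.6 CPM in line A, 17.7 in line C, 13.3 in line D and 17.5 in line E on MEF, and 19.0, 15.8, 13.4 and 15.3 CPM in the same order of lines in feeder-free conditions. Line D was thus the lowest for POT1 in both conditions, which overlapped. ACD, the partner of POT1, on chromosome 18 (chr18:35207967-35213844), averaged 15.3 ± 2.63 CPM against 16.9 ± 2.16 CPM (SD, n = 4 each), with a log2 change of 0.15 (95% interval -0.24 to 0.53). Its values were 18.6 CPM in line A, 15.7 in line C, 14.7 in line D and 12.2 in line E on MEF, and 14.0, 18.8, 16.6 and 18.4 CPM in the same order of lines in feeder-free conditions. In ACD the lines diverged and the conditions overlapped, with values from a log2 ratio of -0.40 in line A to 0.59 in line E. TINF2 and ACD overlap GMPR2 and CARMIL2, which reached 3.92 and 4.46 CPM.

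RTEL1, on chromosome 13 (chr13:54056133-54076900), kept a similar order of lines in both conditions, with line A lowest and the conditions overlapping. On MEF it had 22.8 CPM in line A, 36.4 in line C, 38.0 in line D and 27.0 in line E. In feeder-free conditions it had 25.6 CPM in line A, 35.9 in line C, 35.9 in line D and 33.2 in line E. The log2 fold change between conditions was 0.073 (95% interval -0.36 to 0.50, adjusted p = 0.875 in edgeR).

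**Figure D2:**
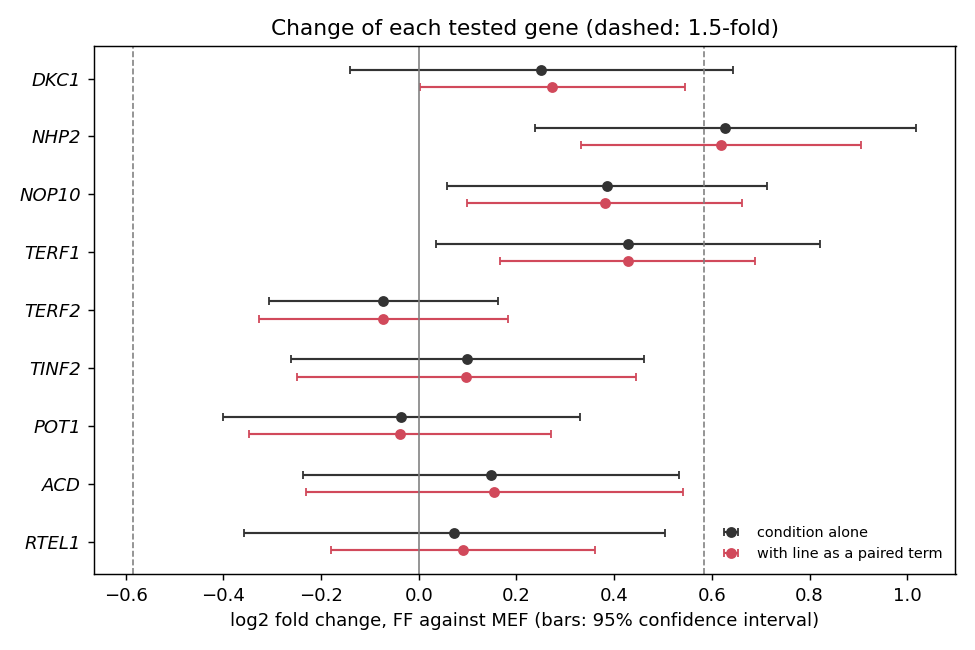
Log2 fold change (horizontal axis) of the 9 tested genes in feeder-free against MEF libraries, with 95% confidence intervals, from the fit on condition alone (dark) and with line as a paired term (red). Dashed lines mark 1.5-fold, and the dark intervals of TERF2, TINF2, POT1, ACD and RTEL1 lie between them.

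In all, 0 of the 9 tested genes passed both thresholds in edgeR's fit on condition alone, against 0.724% of all tested genes called higher and 1% called lower. Those shares depended on single libraries: the 114 higher and 158 lower calls over all tested genes became 259 and 231 when line A was left out of the feeder-free group, and at most 1 and 5 without any other single library. At an unadjusted P-value under 0.05 there were 3 of 9 (NHP2, NOP10 and TERF1, all with higher values), beside 10.2% of all tested genes with higher values and 11.4% with lower. Limma-voom also called 0, and DESeq2 called 1, NHP2, at an adjusted p of 0.0168, beside 4.41% of all tested genes called higher by DESeq2. With line as a replicate block, 1 of 9 (NHP2) was called higher and 0 lower, beside 5.52% and 4.53% of all tested genes. The 869 higher and 713 lower paired calls over all tested genes became 376 and 366 without line D, and 561 and 496 without line C. Higher values in 4 of 4 lines were seen for 3 of 9 (NHP2, NOP10 and TERF1), beside 20.2% of all tested genes. Lower values in 4 of 4 lines were seen for 0, and the share of all tested genes in that direction was not computed. The 95% interval lay inside 1.5-fold either way for 5 of 9 (TERF2, TINF2, POT1, ACD and RTEL1), against 26.5% of all tested genes. The median log2 fold change of the 9 genes was 0.15, beside 0.0060 for all genes tested. With 9 genes, these shares rest on few members and are given as a description.

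Ratios of 2 members within the same library do not depend on scaling. The TERF1 to TERF2 log2 ratio of counts on MEF was 0.48 in line A, 0.87 in line C, 0.86 in line D and 0.56 in line E. In feeder-free conditions it was 1.16 in line A, 1.12 in line C, 1.51 in line D and 0.98 in line E. All 4 feeder-free values were above all 4 MEF values, with a mean difference of 0.50 on the log2 scale, higher in 4 of 4 lines. The two-sided exact permutation test, which did not keep the pairing by line, gave p = 0.0286, the smallest possible with 4 against 4. After Benjamini-Hochberg adjustment over the 5 ratios compared it was 0.143 (exact permutation test). These ratios were picked after the members' values had been seen, a choice that the adjustment over 5 ratios does not cover. The TINF2 to TERF1 log2 ratio was lower in 4 of 4 lines by a mean of 0.33 (difference -0.33, exact permutation p = 0.0857, adjusted 0.214). For the H/ACA proteins, NHP2 to DKC1 differed by 0.35 (exact permutation p = 0.343) and NOP10 to DKC1 by 0.11 (exact permutation p = 0.714), each higher in 3 of 4 lines. The NOP10 to DKC1 difference turned to -0.087 without the MEF library of line C, and that of NHP2 to DKC1 ran from 0.19 to 0.53 when a library was left out. ACD to POT1, the pair that acts together at the single-stranded end, differed by 0.19 (exact permutation p = 0.429), from 0.053 without the MEF library of line E to 0.37 with line A left out of the feeder-free group.

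**Figure D3:**
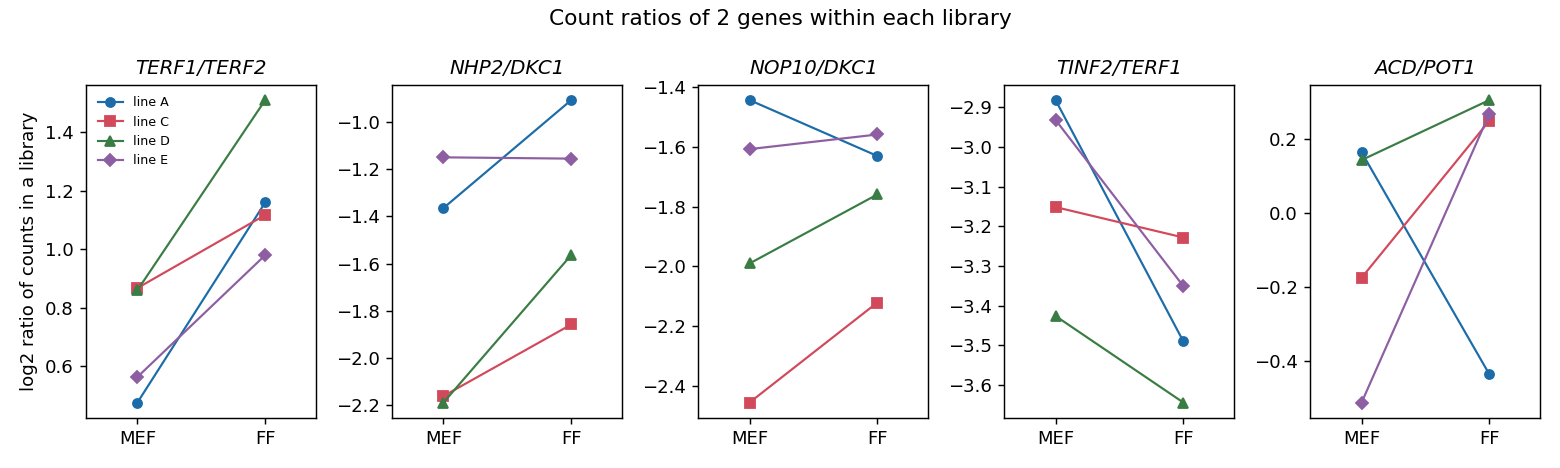
Log2 ratio of the counts of 2 genes in the same library (vertical axis, scaled to each panel and not starting at 0) for MEF and feeder-free (FF) libraries, with a line for each cell line. For TERF1/TERF2 the feeder-free values of 0.98 to 1.51 all lie above the MEF values of 0.48 to 0.87.

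Differences between the 4 lines were tested with the line term of the paired fit, in which each line has 2 libraries that share an origin. None of the 9 tested genes passed (0 of 9, edgeR), against 11.8% of all tested genes, while 2, TERF1 and RTEL1, had an unadjusted P-value under 0.05 and limma-voom also called 0. RTEL1 had the smallest adjusted p for line, 0.0976 in edgeR, followed by TERF1 with 0.137 and DKC1 with 0.181 in the same edgeR test. In both conditions, DKC1, TERF1 and RTEL1 were all lower in lines A and E than in lines C and D. NHP2 had the opposite order, with lines A and E above lines C and D in both conditions. On MEF the summed fibroblast markers were 478 CPM in line A, 530 in line E, 601 in line C and 552 in line D. In feeder-free conditions they were 259 CPM in line A, 404 in line E, 896 in line C and 1324 in line D. The part of these markers in the orders of lines was not tested.

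Other genes, of telomere maintenance and, for 8 of them, of snoRNPs and the nucleolus, were examined as 4 lists with 52 genes in all. Every one was tested. None was called in edgeR's fit on condition alone (0 of 52), while 6 higher and 4 lower had an unadjusted P-value under 0.05, beside 10.2% and 11.4% of all tested genes. DESeq2 called 1 of the 52 (TNKS, lower), beside 3.28% of all tested genes called lower, and limma-voom 0. With the replicate block, 2 of 52 were called higher (GAR1 and PINX1) and 2 of 52 lower (TNKS and PIF1), beside 5.52% and 4.53% of all tested genes. These shares of the 52 genes were near or below those of all tested genes, and the genes named from the lists are given as single values. Each of these 4 calls was lost when line D was left out of the paired fit (adjusted p from 0.0630 to 0.112 in edgeR). GAR1 was also lost without line E (adjusted p = 0.0583 in edgeR), PINX1 without line C (adjusted p = 0.0587), PIF1 without line A (adjusted p = 0.0535), and TNKS without line E, where its log2 value of -0.47 was short of 1.5-fold. The median log2 fold change of the 52 genes was 0.024.

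The list of telomerase assembly and RNA held 13 genes, with a median log2 fold change of 0.26. Of these, 10 of 13 were above 0, beside 50.6% of all tested genes. GAR1, the H/ACA protein that completes the complex with dyskerin, NHP2 and NOP10, averaged 36.6 ± 11.8 CPM on MEF against 58.4 ± 13.9 CPM feeder-free (SD, n = 4 each), and was higher in 4 of 4 lines. Its paired log2 fold change was 0.70 (adjusted p = 0.0317 in edgeR), and on condition alone it was 0.67 (adjusted p = 0.171). PINX1, a TERF1-binding protein that inhibits telomerase, had the largest positive value of the list. It averaged 13.2 ± 5.76 CPM on MEF against 24.1 ± 6.37 CPM feeder-free (SD, n = 4 each), with a paired log2 fold change of 0.94 (adjusted p = 0.0307 in edgeR) and 0.87 on condition alone (adjusted p = 0.179). NAF1, which loads the H/ACA complex in place of GAR1 during assembly, passed the paired adjusted p (0.0310 in edgeR) but not the fold change, at a log2 value of 0.52.

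TERC, the RNA template, had the lowest fold change of that list. TERC counts were 110 in line A, 96 in line C, 76 in line D and 122 in line E on MEF, and 128 in line A, 24 in line C, 97 in line D and 72 in line E in feeder-free conditions. In CPM it was lower in 4 of 4 lines, with 2.18 ± 0.610 (SD, n = 4) on MEF and 1.34 ± 0.904 (SD, n = 4) in feeder-free conditions, though line A was at 2.57 CPM in the latter. Its log2 fold change was -0.70 with a standard error of 0.50 (adjusted p = 0.460 in edgeR) and -0.90 in the paired fit (adjusted p = 0.119), so TERC was not called. TERC lacks a poly(A) tail, and how RNA was selected for the libraries is not given in the sources used here.

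Among the 14 telomere end genes and shelterin partners the median log2 fold change was -0.096. Of these, 4 of 14 were above 0, beside 50.6% of all tested genes. TNKS, tankyrase 1, which modifies TERF1 and releases it from telomeres, averaged 89.6 ± 15.4 CPM on MEF against 55.9 ± 12.8 CPM feeder-free (SD, n = 4 each). All 4 feeder-free values, at most 73.2 CPM, were below the MEF values, at least 78.1 CPM. Of the 52 genes of the other lists, SLX4 and ZSCAN4 also separated downward, and NAF1, SHQ1 and NOP56 separated upward. Upward separation was seen for 6.21% of all tested genes. The downward share was not tallied, so how common downward separation was cannot be said, and these genes are given as single values. The paired log2 fold change of TNKS was -0.69 (adjusted p = 0.0247 in edgeR), and on condition alone -0.68 (adjusted p = 0.0782). TNKS2, its paralog, had a log2 fold change of 0.023 (adjusted p = 0.945 in edgeR). TERF2IP (RAP1), the shelterin subunit that rides on TERF2, averaged 75.3 ± 5.95 CPM on MEF against 71.8 ± 7.06 CPM feeder-free (SD, n = 4 each). The largest positive value was that of TEN1, a subunit of the CST complex that fills in the end, at a log2 fold change of 0.48 (adjusted p = 0.232 in edgeR). The other CST genes, CTC1 and STN1, had log2 fold changes of -0.16 and -0.21. TTI2, a partner of the TELO2 complex, passed the paired adjusted p alone (0.0415 in edgeR).

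Among the 17 recombination and chromatin genes the median was -0.029 on the log2 scale. PIF1, a helicase that strips telomerase from ends, averaged 27.3 ± 9.02 CPM on MEF against 17.8 ± 5.30 CPM feeder-free (SD, n = 4 each). It was lower in 4 of 4 lines, with a paired log2 fold change of -0.61 (adjusted p = 0.0186 in edgeR), and differed between lines (adjusted p for line 0.0293 in edgeR). ATRX and DAXX, which form a histone H3.3 chaperone and are often lost in cells that keep telomeres by recombination, had opposite values of -0.39 and 0.39, with adjusted p of 0.147 and 0.272 in edgeR. Among the 8 snoRNP and nucleolar genes, a list with NOP56 and NOP58 of the box C/D complex, the median log2 fold change was 0.086. NOP56 had a paired log2 fold change of 0.54 (adjusted p = 0.0226 in edgeR) and NOP58 one of 0.53 (adjusted p = 0.0169), both past the adjusted p and short of 1.5-fold. FBL and SNU13, the other proteins of that complex, had log2 fold changes of 0.13 and -0.049, and NCL (nucleolin) had the lowest value of the list, -0.18.

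**Figure D4:**
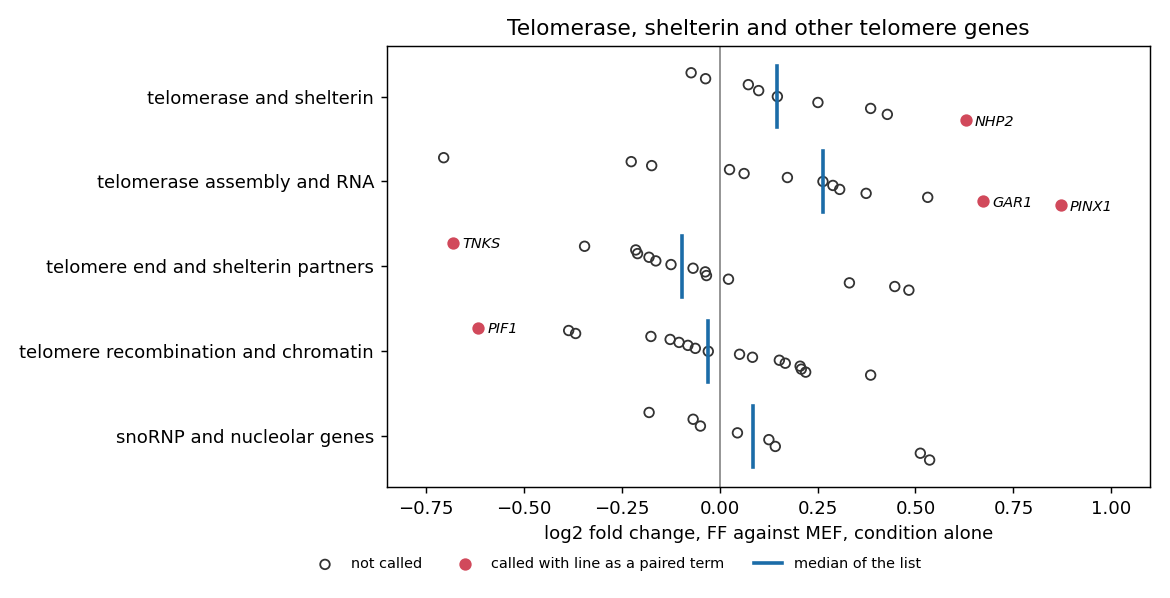
Log2 fold change on condition alone (horizontal axis) of each tested gene, in rows for the 9 telomerase and shelterin genes and the 4 other lists. Filled points are genes called in the paired fit, which are NHP2, GAR1, PINX1, TNKS and PIF1, and blue bars are list medians, from -0.096 to 0.26.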

How the data were processed

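Gene-level raw counts of 8 libraries were deposited by the authors. Trimmomatic-trimmed reads were placed on ARS-UCD2.0 by STAR, optical duplicates and poorly mapped alignments were dropped, and the rest were counted with featureCounts (Subread 1.6.2 in the submitters' processing notes). Bovine-aligned reads of a pure MEF sample had been subtracted from the MEF libraries. That sample was not analysed here. Strand is not given in the sources used here.

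From the 32640 genes, 3 without values were dropped. Differential expression used edgeR 4.0.16 in R 4.3.3 (filterByExpr, TMM, glmQLFit and glmQLFTest) on condition alone, and P-values were adjusted over 15744 genes (Benjamini-Hochberg). A call needed both an adjusted P-value under 0.05 and at least 1.5-fold. Standard errors came from the fold change and its F statistic, and 95% intervals from these. Log2 ratios per line used a prior count of 2. The fits were tested on simulated counts. Libraries of a condition all differed (chi-square per degree of freedom at least 43.1 over 12 pairs), and libraries are separate lines.

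The same lines were grown in both conditions, which pairs the libraries by letter: deviations from the condition mean correlated at 0.421 to 0.664 within lines and at -0.523 to 0.249 between different lines. A second fit added line as a replicate block. The exact permutation tests did not keep the pairing by line. The alternatives were RLE factors, no scaling, other filters, DESeq2 1.42.0, limma-voom (limma 3.58.1), no fold threshold, and each library or line left out.

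All 10 genes were described in full. From the other lists, genes called in either fit and the extremes of each list were named, and others beside these were named after their values were seen. The genes, lists and tests were chosen with earlier results of these data known. Coordinates came from the RefSeq gene table of ARS-UCD2.0. Exon and coding lengths were not used here, so levels were not ordered between genes, beyond a count of genes above TERT in CPM.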

Additional observations from a re-analysis of the deposited data

Results flagged for a closer look

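Among the 20 groups of 4 libraries checked (10 genes in 2 conditions), 1 held a library far from the other 3 by Dixon's criterion, which flags about 1 group in 20 by chance. TERF1 was at 170 CPM in the feeder-free library of line D, against 116 to 125 CPM in the other feeder-free libraries. That library also had the largest total count.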

How the results depend on the processing

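No member was called on condition alone (0 higher, 0 lower). DESeq2 called 1 higher, the replicate block (paired by line) 1, and the replicate block with no fold change threshold, added after the data were examined, 2. With a library left out, or a line left out of the paired fit, 0 to 1 were called higher. Of the 52 genes of the other lists (0 called), the replicate block called 2 higher and 2 lower. Without a fold change threshold it called 6 and 2 of them, beside 1207 higher and 1279 lower of all 15744 tested genes. Among these 52 genes DESeq2 called 0 higher and 1 lower, and leaving out libraries or lines gave 0 to 3 higher and 0 to 2 lower. The remaining settings called none, and 0 members differed between lines under every setting run. The direction turned where values were near 0: POT1 was at 0.0054 with no scaling and ran from -0.13 to 0.038 on the log2 scale when libraries or lines were left out, TINF2 from -0.0018 to 0.19 and RTEL1 from -0.051 to 0.18. The NOP10 to DKC1 log2 ratio difference ran from -0.087 to 0.25, and the other 4 ratios kept their direction without each library. The other 6 tested members kept their direction under every setting run. The cause was not tested. Ordering levels per length, planned as a description, was not run. With 3 libraries against 4, an exact test cannot give a p under 0.0571, so ratios without a library carry no test. TERT counts of 0 to 6 limit what can be said of it.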
